A study of Mus musculus with 12 samples.

Results

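T, Eomes and Mixl1 are 3 transcription factor genes of the primitive streak, and they were taken by their symbols, 3 of the 24736 genes in the table, and all 3 were among the 14196 genes tested. The primitive streak is the region of the gastrulating embryo where epiblast cells leave the epithelium and form mesoderm and endoderm. T (brachyury) and Eomes (eomesodermin) encode T-box factors and Mixl1 encodes a paired-type homeodomain factor. In the mouse embryo T is induced by WNT signalling and stays active in the caudal epiblast and the axial progenitors, whereas Eomes depends on Nodal signalling, acts in the early streak and is needed for the anterior mesoderm and the definitive endoderm. Mixl1 is a streak gene that responds to both signals. The question addressed here is how far the level of each gene depended on the WNT agonist CHIR99021 and on the amount of SOX2, a pluripotency and neural factor that keeps epiblast cells out of the mesodermal fate.

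RNA was sequenced from mouse embryonic stem cells differentiated for 72 h, in 4 groups of 3 biological replicates that the submitters describe as independent. Every culture received FGF at 10 ng/ml and LGK974, an inhibitor of WNT secretion, at 5 µM. EpiLC (epiblast-like cells) were wild-type cells without CHIR99021. CEpiLC (caudal epiblast-like cells) were wild-type cells given CHIR99021 from day 2 to day 3. SOX2-OFF and SOX2-ON came from the SOX2 TetON line, labelled Sox2-/-, in which endogenous Sox2 was ablated and a Sox2 cDNA in the Hprt locus is driven by doxycycline. Both received CHIR99021 as the CEpiLC did. SOX2-ON was kept in doxycycline at 1 µg/ml, and SOX2-OFF was differentiated without it, having been maintained in doxycycline as stem cells. The TetON line was grown from picked clones of the HM1 TetON cells that also served as wild type, and all lines were propagated on feeder fibroblasts before differentiation. SOX2-ON against SOX2-OFF was therefore the comparison within 1 line, in which doxycycline itself and SOX2 cannot be told apart. In comparisons of either TetON group with CEpiLC the line and the SOX2 state cannot be told apart. The wild-type groups differed in treatment by CHIR99021 alone, but Sox2 also fell between them. The agonist and that fall in Sox2 cannot be told apart.

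The libraries held 10408252 to 27337740 expected counts. Levels are given as TPM, the share of a library's transcripts after division by gene length. Sox2 was high in EpiLC (118.67 to 171.27 TPM) and SOX2-ON (173.24 to 215.14 TPM). It was low in CEpiLC (7.78 to 13.67 TPM) and SOX2-OFF (12.27 to 21.19 TPM), so each library fitted its label. Reads of the disrupted gene and of the transgene are counted together, so the SOX2-OFF value is not a level of functional SOX2. Sox3, the X-linked relative of Sox2, fell from 55.2 ± 7.58 TPM (SD, n = 3) in EpiLC to 20.6 ± 7.18 TPM in CEpiLC. The TetON libraries held less of it, 3.05 ± 0.808 TPM in SOX2-OFF against 9.42 ± 2.54 TPM in SOX2-ON. Of the caudal epiblast markers Hoxa9 and Hoxc9 stayed under 1 TPM in CEpiLC, whereas Cdx1, Cdx2, Cdx4, Nkx1-2 and Hoxb9 were at 10.5 TPM or more in each CEpiLC library. The epiblast markers Pou5f1, Fgf5, Otx2, Pou3f1 and Dnmt3b summed to 2360 to 2778 TPM in EpiLC and to 822 to 1423 TPM in the other groups. In bulk RNA fewer cells expressing a gene and less RNA per cell cannot be told apart, and this holds for every level below.

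T lies on the plus strand of chromosome 17 (chr17:8434423-8442496 in GRCm38.p6), Eomes on the plus strand of chromosome 9 (chr9:118478186-118486132), and Mixl1 on the minus strand of chromosome 1 (chr1:180693043-180697034). Upstream windows of 250 bases for T (chr17:8434173-8434422) and Eomes (chr9:118477939-118478188), as set by the RefSeq promoter entries, are shown because both genes were compared here for their response to a WNT agonist. The T window ends at the base before the gene, and the Eomes window takes in the first 3 bases of the gene as positioned above. Both are printed 5′ to 3′ on the plus strand of GRCm38.p6, with capitals marking CTTTG, the core letters of the TCF/LEF site, on either strand.
T: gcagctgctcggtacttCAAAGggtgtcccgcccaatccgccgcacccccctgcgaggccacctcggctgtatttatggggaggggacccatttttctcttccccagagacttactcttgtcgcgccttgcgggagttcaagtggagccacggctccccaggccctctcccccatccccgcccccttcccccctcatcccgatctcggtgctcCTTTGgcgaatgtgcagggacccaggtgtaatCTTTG
Eomes: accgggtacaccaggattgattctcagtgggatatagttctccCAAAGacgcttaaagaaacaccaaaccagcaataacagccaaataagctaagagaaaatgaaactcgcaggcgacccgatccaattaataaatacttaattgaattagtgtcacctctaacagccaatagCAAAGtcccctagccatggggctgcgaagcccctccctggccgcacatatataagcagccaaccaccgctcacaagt

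The T window held 3 matches to CTTTG, starting at -233, -37 and -5, where -1 is the last base of the window. Of 32851 RefSeq promoter windows of the same length, 3.94% held 3 or more. The Eomes window held 2 matches, starting at -207 and -77, and 15.7% of the windows held 2 or more. The T window also held 1 copy of AGGTGT, the core letters of the T-box site, which 11.8% of the windows held and which overlapped none of the CTTTG matches. Neither window held ATTGT, 1 form of the core of the SOX site, on either strand, and 27.7% of windows did. Nor did either hold AATNCACA, the FOXH1 site, found in 3.18% of windows. The letters CTTTG also occur in SOX sites, so the matches above do not tell TCF/LEF from SOX sites. The T window had 62.8% G and C bases and the Eomes window 46.4%. These matches describe letters and not binding, which RNA counts do not measure.

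T was near 0 without CHIR99021 and became the most abundant of the 3 genes with it. The level of T was 0.68, 0.52 and 0.45 TPM in EpiLC replicates 1, 2 and 3. It was 473.61, 768.08 and 892.14 TPM in CEpiLC. SOX2-OFF had 804.42, 792.22 and 829.97 TPM. SOX2-ON had 145.34, 137.88 and 171.98 TPM. The SOX2-OFF libraries lay inside the CEpiLC range, and the SOX2-ON libraries lay below both and well above EpiLC. The order of the means was therefore EpiLC at 0.55 ± 0.118, SOX2-ON at 151.7 ± 17.9, and CEpiLC at 711 ± 215 with SOX2-OFF at 809 ± 19.3 (SD, n = 3). The last pair did not differ beyond their spread.

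Eomes was the lowest of the 3 genes in CEpiLC, and it was raised where the TetON line lacked doxycycline. Its level was 1.04, 1.47 and 1.57 TPM in EpiLC and 1.44, 4.73 and 6.59 TPM in CEpiLC, so that the lowest CEpiLC library was inside the EpiLC range. SOX2-OFF had 43.48, 34.13 and 60.08 TPM. SOX2-ON had 3.14, 3.36 and 3.55 TPM. Each SOX2-OFF library exceeded the highest library of any other group, and SOX2-ON lay within the CEpiLC range. The order of the means was EpiLC at 1.36 ± 0.282, SOX2-ON at 3.35 ± 0.205, CEpiLC at 4.25 ± 2.61 and SOX2-OFF at 45.9 ± 13.1 (SD, n = 3). SOX2-ON and CEpiLC did not differ beyond their spread. The EpiLC libraries held 40 to 54 Eomes counts and the SOX2-ON libraries 110 to 114, which limits the precision of their comparison.

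Mixl1 differed in level among the 4 groups. It was 0.81, 0.32 and 1.19 TPM in EpiLC, 3.55, 2.32 and 5.98 TPM in SOX2-ON, 24.56, 42.09 and 96.19 TPM in CEpiLC, and 156.75, 120.4 and 202.96 TPM in SOX2-OFF. No library of one group overlapped the range of another. Absence of overlap was common, at 43.5% of tested genes in SOX2-ON against SOX2-OFF, and its share over all 4 groups was not computed. The means were 0.773 ± 0.436, 3.95 ± 1.86, 54.3 ± 37.3 and 160.04 ± 41.4 TPM (SD, n = 3) in that order. The low groups rested on 7 to 19 counts a library in EpiLC and 45 to 114 in SOX2-ON.

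**Figure D1:**
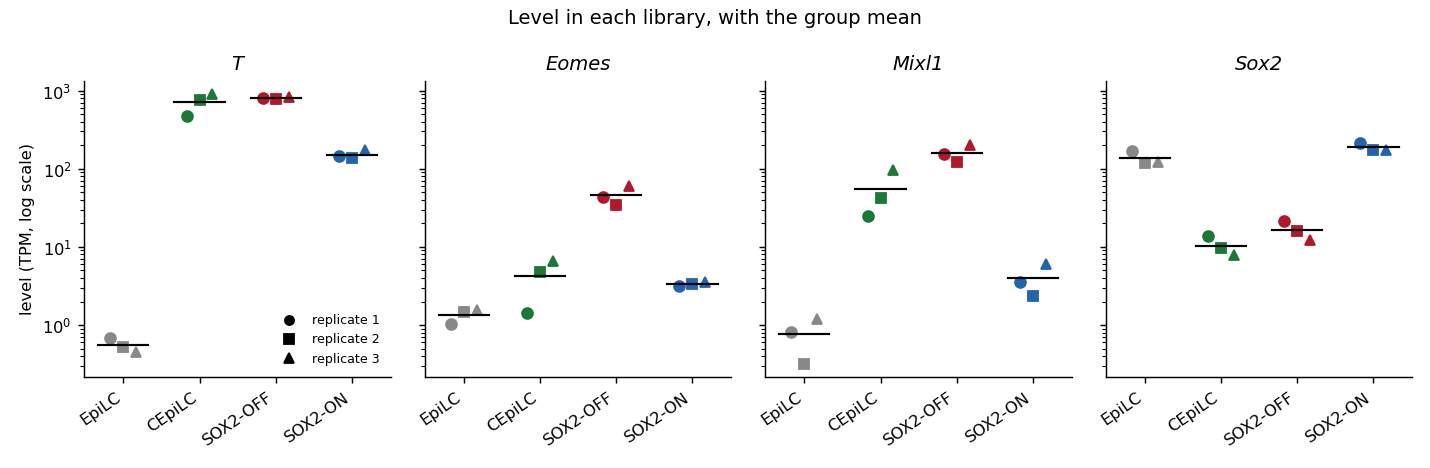
Level of T, Eomes, Mixl1 and Sox2 in each of the 12 libraries (TPM, log axis), by group on the x axis, with replicates 1, 2 and 3 as circle, square and triangle and a bar at the group mean. T in SOX2-OFF overlaps CEpiLC at 792.22 to 829.97 TPM, Eomes stands apart only in SOX2-OFF at 34.13 to 60.08 TPM, and Mixl1 has 4 ranges that do not overlap.

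All 3 genes were higher in wild-type cells given CHIR99021, by amounts that differed widely. Sox2 differed by -3.67 on the log2 scale in the same comparison (SE 0.23, edgeR adjusted p = 7.4e-08). The changes below are therefore not those of CHIR99021 at a fixed Sox2 level. CEpiLC against EpiLC passed an adjusted p of 0.05 in 42.2% of all tested genes, and 22.1% were called higher, and 3 of the 3 genes were among the higher ones. T rose by 10.29 on the log2 scale (SE 0.30, edgeR adjusted p = 1.36e-10), the 10th highest fold change of the 14196 tested genes. Mixl1 rose by 6.17 (SE 0.64, edgeR adjusted p = 7.38e-06), which ranked 58th. Eomes rose by 1.56 (SE 0.46, edgeR adjusted p = 0.0156), which ranked 597th. The Eomes call was lost in limma-voom (1.14, adjusted p = 0.175) and when EpiLC replicate 1, CEpiLC replicate 2 or CEpiLC replicate 3 was left out (1.38, 1.39 and 1.13, edgeR adjusted p = 0.0637, 0.0573 and 0.0582). Without CEpiLC replicate 1, the library with the lowest Eomes level in its group, the change was 2.05 (edgeR adjusted p = 0.000116).

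Within the TetON line all 3 genes were lower when SOX2 was maintained, and here the order of the changes was another one. SOX2-ON against SOX2-OFF called 28.8% of tested genes and 14.1% as lower, and all 3 genes were among the lower ones with no overlap between the libraries. That absence of overlap was shared by 43.5% of tested genes. Mixl1 fell by 5.39 on the log2 scale (SE 0.50, edgeR adjusted p = 5.96e-06), or 42.1-fold, the 17th lowest fold change of all tested genes. Eomes fell by 3.82 (SE 0.38, edgeR adjusted p = 9.64e-06), or 14.1-fold, the 43rd lowest. T fell by 2.47 (SE 0.18, edgeR adjusted p = 7.42e-07), or 5.53-fold, the 150th lowest. All 3 calls held in every alternative that was run. The 3 genes lie on chromosomes 17, 9 and 1, whose median log2 level differed by less than 0.05 between the TetON and the wild-type libraries, while the medians of chromosomes 6, 8 and 11 differed by 0.58, 0.61 and -0.52. Between SOX2-ON and SOX2-OFF the latter medians differed by -0.0005, 0.0024 and -0.025. The shifts thus bear on comparisons of TetON with wild-type groups.

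In SOX2-OFF against CEpiLC, which differ in line as well as in SOX2 state, Eomes and Mixl1 were higher and T did not pass the test. SOX2-OFF against CEpiLC called 48.5% of tested genes. The difference in T was 0.20 on the log2 scale (SE 0.17, edgeR adjusted p = 0.335). It was -0.01 without CEpiLC replicate 1 (edgeR adjusted p = 0.962) and 0.41 without CEpiLC replicate 3 (edgeR adjusted p = 0.0355), so its sign turned without one CEpiLC library and its call without another. Eomes rose by 3.55 (SE 0.37, edgeR adjusted p = 6.41e-06), or 11.7-fold. Mixl1 rose by 1.61 (SE 0.39, edgeR adjusted p = 0.00386), or 3.05-fold, and by 1.25 to 2.30 with single libraries left out. Sox2 transcripts were slightly higher in SOX2-OFF than in CEpiLC (log2 difference 0.65, SE 0.24, edgeR adjusted p = 0.0367), and Sox3 was lower (-2.73, SE 0.29, edgeR adjusted p = 6.07e-06).

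In SOX2-ON, T and Mixl1 were below CEpiLC and the difference in Eomes did not pass the test. SOX2-ON against CEpiLC called 56.5% of tested genes. T fell by 2.27 on the log2 scale (SE 0.17, edgeR adjusted p = 3.35e-07), and Mixl1 fell by 3.78 (SE 0.49, edgeR adjusted p = 2.75e-05), or 13.8-fold. The difference in Eomes was -0.27 (SE 0.41, edgeR adjusted p = 0.599). It was -0.75 without CEpiLC replicate 1 (edgeR adjusted p = 0.0241), 0.16 without CEpiLC replicate 3 (edgeR adjusted p = 0.750) and 0.17 in limma-voom (adjusted p = 0.799), so neither its sign nor its call was stable.

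SOX2-ON was above EpiLC in all 3 genes, and both groups had high Sox2. They differed in line, CHIR99021 and doxycycline, which cannot be told apart here. SOX2-ON against EpiLC called 59.8% of tested genes. T was higher by 8.02 on the log2 scale (SE 0.30, edgeR adjusted p = 1.23e-09), Mixl1 by 2.38 (SE 0.84, edgeR adjusted p = 0.0257) and Eomes by 1.29 (SE 0.46, edgeR adjusted p = 0.0281). The Mixl1 and Eomes calls were not firm. In limma-voom their adjusted p was 0.175 and 0.102. The Mixl1 call was lost without EpiLC replicate 1 or 2 or SOX2-ON replicate 3, with adjusted p up to 0.101, and the Eomes call without EpiLC replicate 1 or 2 or SOX2-ON replicate 2 or 3, with adjusted p up to 0.099. SOX2-OFF exceeded EpiLC by 10.49 in T (SE 0.30), 7.78 in Mixl1 (SE 0.62) and 5.11 in Eomes (SE 0.42), all called by edgeR in a comparison that called 62.1% of tested genes. SOX2-OFF and EpiLC differed in line, CHIR99021 and SOX2 state, which cannot be told apart either. The 3 comparisons with EpiLC share its libraries, as do the 3 with CEpiLC.

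**Figure D2:**
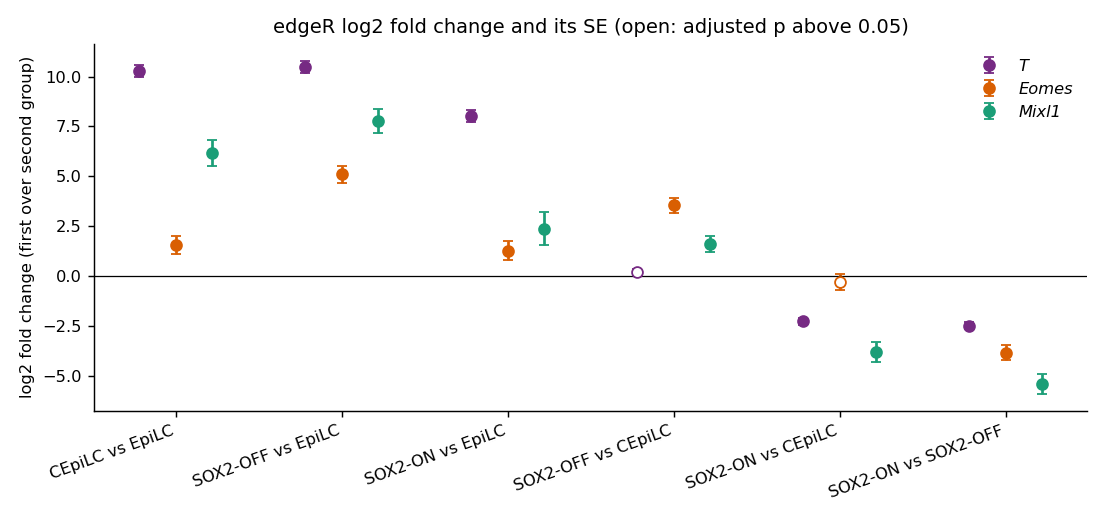
edgeR log2 fold change of T, Eomes and Mixl1 (first over second group, y axis) in the 6 comparisons (x axis), with error bars of 1 SE and open points where the adjusted p was above 0.05. T has the largest change of the 3 genes in each comparison with EpiLC, such as 10.29 in CEpiLC, and Mixl1 the largest change of SOX2-ON against SOX2-OFF at -5.39.

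The balance among the 3 genes was compared as the ratio of their TPM values within a library, which does not depend on library scaling. Per 1000 TPM of T, Eomes was at 3.04, 6.16 and 7.39 TPM in CEpiLC replicates 1, 2 and 3. The corresponding values were 54.1, 43.1 and 72.4 for SOX2-OFF. They were 21.6, 24.4 and 20.6 for SOX2-ON. Each SOX2 TetON library therefore held more Eomes per T than any CEpiLC library, including the SOX2-ON libraries, whose Eomes level alone lay within the CEpiLC range. In EpiLC, where both genes were low, Eomes exceeded T by 1.53, 2.83 and 3.49 times.

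Per 1000 TPM of T, Mixl1 was at 51.9, 54.8 and 107.8 TPM in CEpiLC. SOX2-OFF had 194.9, 152.0 and 244.5. SOX2-ON had 24.4, 16.8 and 34.8. The 3 ranges did not overlap, with SOX2-ON lowest and SOX2-OFF highest. Mixl1 was 17.1, 8.90 and 14.6 times as high as Eomes in CEpiLC. In SOX2-OFF the multiple was 3.61, 3.53 and 3.38, a spread far narrower than that of either gene alone. In SOX2-ON it was 1.13, 0.690 and 1.68, on both sides of equality.

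On the log2 scale, the ratio of Eomes to T differed by -8.84 (SE 0.52) in CEpiLC against EpiLC and by -1.31 (SE 0.23) in SOX2-ON against SOX2-OFF. The ratio of Mixl1 to T differed by -4.20 (SE 0.67) and -2.98 (SE 0.36) in these comparisons. The ratio of Mixl1 to Eomes differed by 4.64 (SE 0.65) and -1.68 (SE 0.37). Relative to the other 2 genes, T thus changed most between EpiLC and CEpiLC and least between the TetON groups. Mixl1 changed most between the TetON groups. Of 18 such differences, 3 ratios in 6 comparisons, the libraries did not overlap in 17, the exception being Mixl1 to Eomes in SOX2-ON against EpiLC (difference 1.08, SE 0.69). An exact two-sided permutation test gave p = 0.1 for each of the 17, the smallest that 3 libraries against 3 allow, and 0.106 after Benjamini-Hochberg adjustment over the 18. This test cannot pass the threshold at this size, so the values and their SE are given as a description. The 18 differences share genes and groups and are not independent, and the overlap for other gene pairs was not computed.

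**Figure D3:**
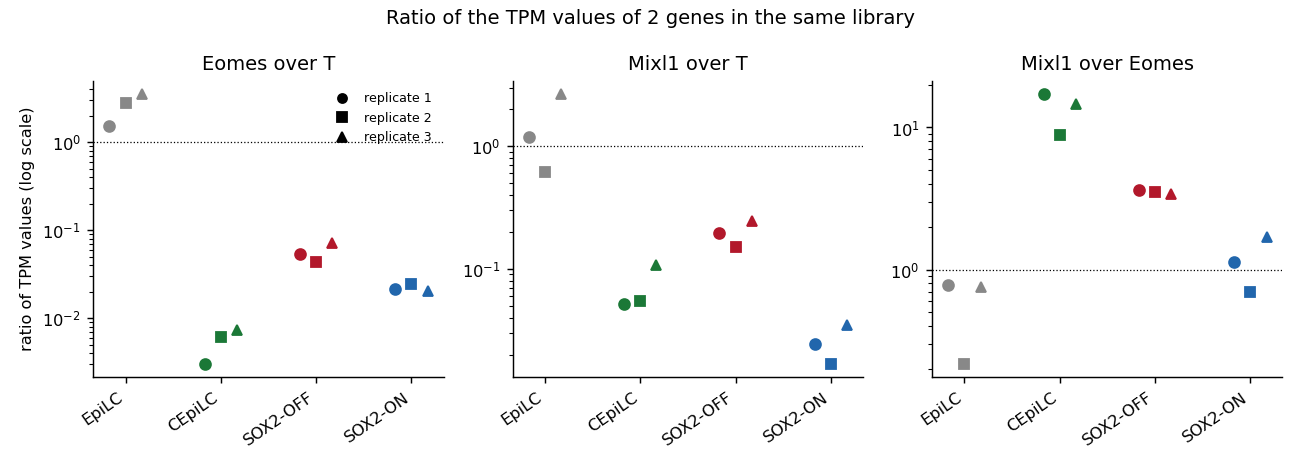
Ratio of the TPM values of Eomes to T, Mixl1 to T and Mixl1 to Eomes in each of the 12 libraries (log axis), by group, with the replicates as circle, square and triangle and a dotted line at equal levels. Eomes per T is lowest in CEpiLC and higher in both TetON groups, whereas Mixl1 per T is lowest in SOX2-ON.

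The CEpiLC libraries differed from each other in these genes far more than in most. CEpiLC replicate 1 was lowest and replicate 3 highest in T, Eomes and Mixl1 alike. The SD of log2 CPM, counts scaled to library size, within CEpiLC was 0.48 for T, 1.13 for Eomes and 1.00 for Mixl1, against a median of 0.14 over tested genes, and 89.7%, 99.2% and 98.6% of tested genes had a lower SD. In SOX2-OFF the SD of T was 0.05, and 20.2% of tested genes had a lower one. Sox2 ran the other way in CEpiLC, at 13.67, 9.66 and 7.78 TPM in replicates 1, 2 and 3. CEpiLC replicate 3 also held the highest levels in its group of 4 listed genes of the streak and nascent mesoderm, singled out after their values were seen. These were Tbx6 (10.92, 23.58 and 86.24 TPM in replicates 1, 2 and 3), Msgn1 (64.49, 94.98 and 363.77), Mesp1 (0.23, 0.92 and 5.13) and Snai1 (15.29, 21.63 and 56.07). Other genes of that list did not follow this order. Examples were Chrd (3.15, 3.87 and 1.87), Apln (94.7, 107.23 and 59.1) and Foxa2 (2.53, 12.9 and 8.96). The 3 libraries differed in depth too, at 27337740, 18712441 and 10408252 expected counts, and the part of depth in these values was not tested.

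Replicate 3 had the highest Mixl1 and the highest Eomes of its group in 4 of 4 groups, and replicate 1 the highest Sox2 in 4 of 4. T had no such order, with replicate 1 highest in EpiLC and replicate 3 in the other 3 groups. Replicate 3 had the lowest depth in 4 of 4 groups. In SOX2-ON its depth was 17557433 counts against 17897715 and 18658135.

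**Figure D4:**
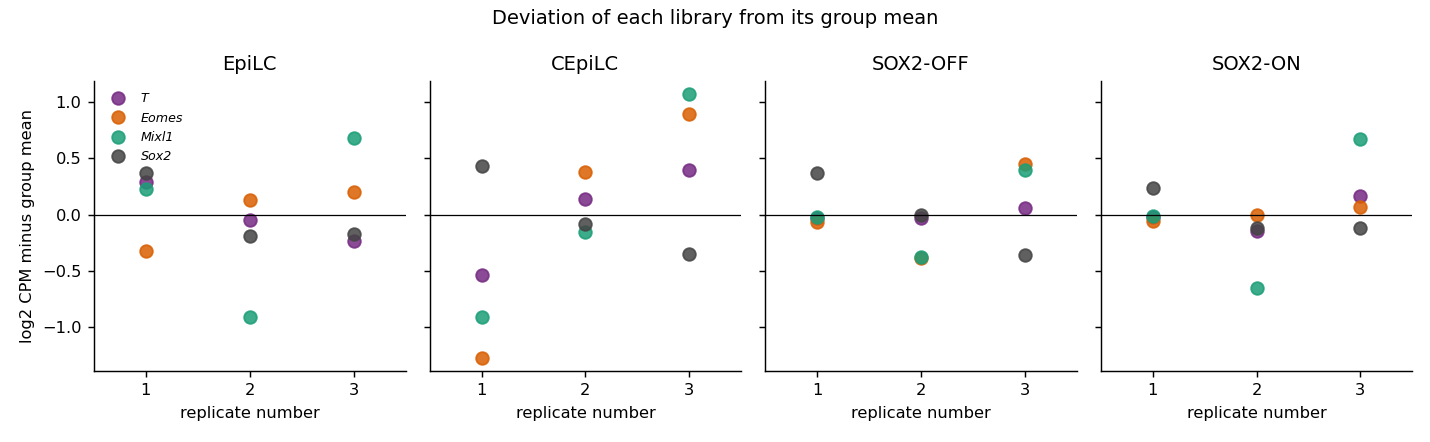
Deviation of log2 CPM from the group mean (y axis) by replicate number (x axis) for T, Eomes, Mixl1 and Sox2, 1 panel per group. CEpiLC shows the widest spread, from -1.27 for Eomes in replicate 1 to 1.07 for Mixl1 in replicate 3.

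The streak and mesendoderm genes listed beside these 3 were also compared. Of 24 tested genes in this list, 17 rose and 0 fell in CEpiLC against EpiLC, and 7 did not pass the edgeR test (median log2 change 4.24, against 0.01 over all tested genes, of which 42.2% were called). In SOX2-ON against SOX2-OFF 2 rose and 14 fell (median -1.51 against -0.01, with 28.8% of tested genes called). In SOX2-OFF against CEpiLC 8 rose and 9 fell (median -0.01 against -0.01, with 48.5% of tested genes called), so the list had no common direction there. Among those that rose were Sox17, Gata4 and Gata6, by 5.27, 4.55 and 4.53. In SOX2-ON against CEpiLC they rose too, by 4.72, 3.93 and 5.52, and so were higher in both TetON groups. Mesp1, a nascent mesoderm factor that Eomes regulates, was at 0 in the 3 EpiLC libraries, at 10.03, 7.37 and 17.19 TPM in SOX2-OFF and at 0, 0 and 0.25 TPM in SOX2-ON. Gsc, a homeobox gene of the anterior streak, rose by 1.98 in SOX2-OFF against CEpiLC (SE 0.40, edgeR adjusted p = 0.0012) and fell by 5.11 in SOX2-ON against SOX2-OFF (SE 0.55, edgeR adjusted p = 1.8e-05). Both thus moved in the direction of Eomes and Mixl1. Chrd and Noto of the same list did not, and fell by 1.19 and 3.63 in SOX2-OFF against CEpiLC (edgeR adjusted p = 0.00097 and 0.0018). Tbx6 and Fgf8, genes of the caudal streak and presomitic mesoderm, fell by 1.62 and 1.22 in SOX2-OFF against CEpiLC (edgeR adjusted p = 0.029 and 0.0023), where T did not pass the test. Msgn1 and Evx1 did not pass it either, at -0.55 and 0.49 (edgeR adjusted p = 0.44 and 0.15).

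The T-box family moved unevenly. Leaving out T and Eomes, 8 of 15 family members were tested. Of these 1 rose in CEpiLC against EpiLC, which was Tbx6, and 3 rose and 1 fell in SOX2-ON against SOX2-OFF, where 42.2% and 28.8% of all tested genes were called. Tbx3 was at 10.0 to 11.92 TPM in SOX2-OFF and 11.25 to 27.87 in SOX2-ON, against 0.36 or less in the wild-type libraries, and so was high in both TetON groups. Tbr1, the closest relative of Eomes, stayed at 0.14 TPM or below in every library. Among 13 tested paired-type and related homeobox genes other than Mixl1, 5 rose and 5 fell in CEpiLC against EpiLC, where 42.2% of all tested genes were called. In SOX2-ON against SOX2-OFF 3 rose and 2 fell, a share near the 28.8% of all tested genes.

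Most tested transcripts of the WNT pathway rose in CEpiLC. Of 17 tested genes, 13 rose and 2 fell in CEpiLC against EpiLC (median 3.67 against 0.01, with 42.2% of tested genes called), the latter being Tcf7l1 and Ctnnb1. In SOX2-ON against SOX2-OFF 1 rose and 9 fell (median -0.76 against -0.01, with 28.8% of tested genes called). Axin2, a feedback inhibitor and direct target of the pathway, rose by 3.67 in CEpiLC (SE 0.17, edgeR adjusted p = 4.8e-09). Between SOX2-ON and SOX2-OFF it differed by -0.05 (SE 0.15, edgeR adjusted p = 0.85), where T fell by 2.47. Sp5, another direct target, fell by 1.28 in the same comparison (SE 0.20, edgeR adjusted p = 0.0004), and Wnt3, the ligand that induces the streak, fell by 2.02 (SE 0.13, edgeR adjusted p = 3.1e-07). Wnt3a, a ligand of the caudal streak, was at 48.1 to 75.91 TPM in CEpiLC against 9.52 to 12.9 TPM in SOX2-OFF, and only 0.71 to 1.14 TPM in SOX2-ON, an order unlike that of T. Lef1, a nuclear effector, fell by 1.06 in SOX2-ON against SOX2-OFF (SE 0.15, edgeR adjusted p = 0.00014), while the repressor Tcf7l1 rose by 0.69 (SE 0.11, edgeR adjusted p = 0.00039).

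Members of the Nodal pathway moved in both directions. Nodal, the ligand, was at 0.29 to 1.17 TPM in EpiLC and 7.98 to 21.1 TPM in CEpiLC. In the TetON line it was at 49.56 to 80.14 TPM in SOX2-OFF against 10.88 to 17.46 TPM in SOX2-ON. Its co-receptor Tdgf1 (Cripto) was at 0.72 to 1.06, 2.97 to 18.87, 44.6 to 50.33 and 8.19 to 16.53 TPM in the same order. Both were highest in each SOX2-OFF library, as Eomes was, and their ranges in SOX2-ON and CEpiLC overlapped. Nodal rose by 2.24 in SOX2-OFF against CEpiLC (SE 0.30, edgeR adjusted p = 4.8e-05) and fell by 2.25 in SOX2-ON against SOX2-OFF (SE 0.30, edgeR adjusted p = 0.00011). Among the receptors and SMADs, Smad3 fell by 0.44 and Acvr1b by 0.28 in SOX2-OFF against CEpiLC (edgeR adjusted p = 0.012 and 0.013). The receptor gene Acvr2a rose by 0.24 in that comparison (edgeR adjusted p = 0.026). Smad2 differed by -0.05 and Foxh1, the DNA-binding partner of SMAD2, by 0.02 in the same comparison (edgeR adjusted p = 0.53 and 0.87), and Foxh1 fell by 0.55 in SOX2-ON against SOX2-OFF (SE 0.09, edgeR adjusted p = 0.00069). There Smad3 and Smad2 rose by 0.55 and 0.29 (edgeR adjusted p = 0.0051 and 0.0024). Acvr2b and Acvr2a differed by -0.29 and -0.25 in SOX2-ON against SOX2-OFF (edgeR adjusted p = 0.0039 and 0.034). The ligand gene Gdf3 rose by 4.27 in SOX2-ON against SOX2-OFF (SE 0.20, edgeR adjusted p = 3.8e-08), opposite to Nodal. Of the inhibitors, Lefty2 fell by 1.54 (SE 0.52, edgeR adjusted p = 0.043), and Lefty1 differed by 1.07 (SE 0.57, edgeR adjusted p = 0.18). Over the 17 tested genes of the pathway, 7 rose and 2 fell in SOX2-OFF against CEpiLC (median 0.16 against -0.01), near the 48.5% of all tested genes called. In SOX2-ON against SOX2-OFF 4 rose and 7 fell (median -0.20 against -0.01, with 28.8% of tested genes called).

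**Figure D5:**
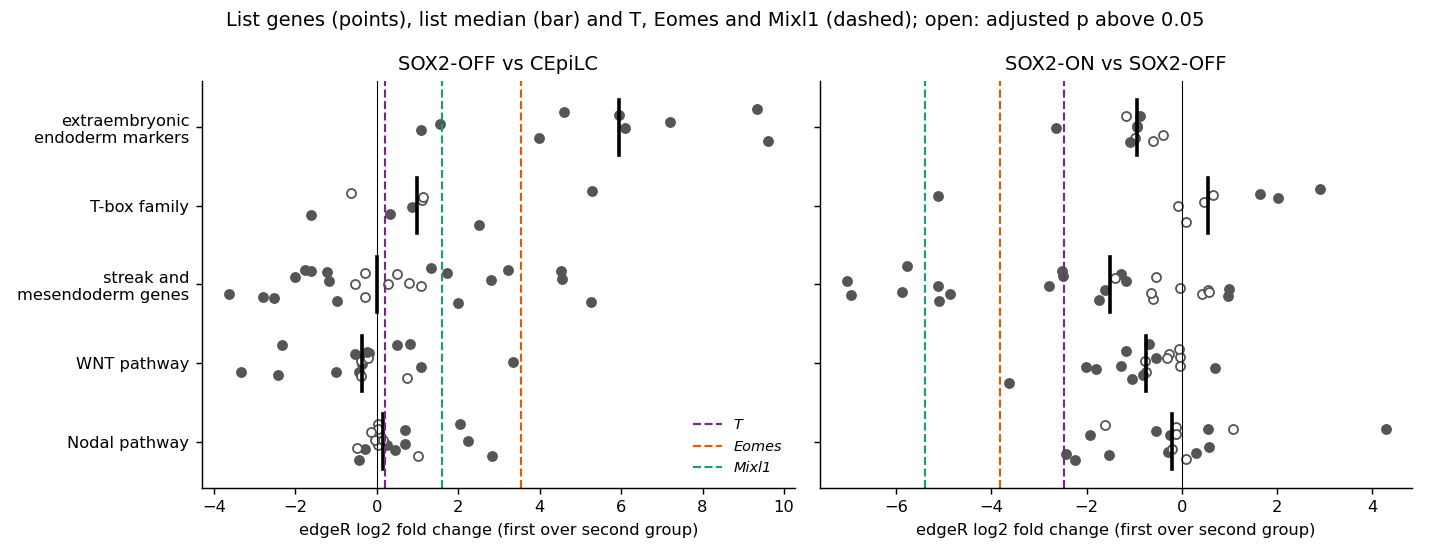
edgeR log2 fold changes (x axis) of the tested genes of 5 lists, with T, Eomes and Mixl1 left out of the points and drawn as dashed lines, in SOX2-OFF against CEpiLC and SOX2-ON against SOX2-OFF. Filled points passed an adjusted p of 0.05, open points did not, and bars mark list medians, such as 5.95 for the extraembryonic endoderm markers in SOX2-OFF against CEpiLC.

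Eomes is also expressed in visceral endoderm and trophoblast, so markers of both were read beside it. Of 9 tested extraembryonic endoderm markers, 9 rose in SOX2-OFF against CEpiLC (median 5.95 against -0.01) and 7 rose in SOX2-ON against CEpiLC, while 0 rose and 5 fell in SOX2-ON against SOX2-OFF. All tested genes were called at 48.5%, 56.5% and 28.8% in these comparisons. Their summed level over 12 markers was 250 to 280.5 TPM in EpiLC and 232 to 319 TPM in CEpiLC. It was 855 to 943 TPM in SOX2-OFF against 371 to 828 TPM in SOX2-ON. Few genes carried the wild-type sums, since 9 of the 12 markers stayed under 1 TPM in EpiLC and in CEpiLC. In the TetON groups more markers took part, as 3 of the 12 stayed under 1 TPM in SOX2-OFF and 4 in SOX2-ON. Lamb1 alone was at 52.17 to 53.77 TPM in EpiLC and 285.26 to 314.49 TPM in SOX2-OFF. Afp and Apoa1, which define mature visceral endoderm, stayed at 0.83 TPM or below in every library. Cubn, an endocytic receptor of that tissue, was at 0.08 to 0.22 TPM in CEpiLC. SOX2-OFF had 70.5 to 100.09 TPM and SOX2-ON 24.0, 34.22 and 77.41 TPM. The Eomes levels of the same 3 SOX2-ON libraries were 3.14, 3.36 and 3.55 TPM. The part of these markers in the Eomes difference was not tested.

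Trophoblast markers other than Eomes and Cdx2 summed to 4.29 to 7.48 TPM over 9 genes in EpiLC and 5.05 to 6.08 TPM in CEpiLC. The sum was 10.2 to 17.3 TPM in SOX2-OFF against 29.8 to 47.9 TPM in SOX2-ON. Of the 6 tested among these genes and Cdx2, 3 rose and 1 fell in SOX2-OFF against CEpiLC, where 48.5% of all tested genes were called. Gata3, Krt7 and Hand1 rose by 3.75, 3.00 and 1.56 (edgeR adjusted p = 0.00043, 0.00021 and 0.0021), and Cdx2 fell by 2.79 (edgeR adjusted p = 7.3e-07). Gata3 was only at 0.52 to 1.04 TPM in SOX2-OFF. Krt7 in SOX2-OFF against EpiLC did not pass the test (0.42, edgeR adjusted p = 0.36). Elf5, Tpbpa and Prl3d1, also on the list, stayed at 0.1 TPM or below in every library. The highest sum was in SOX2-ON, where Eomes was low, and came mainly from Tfap2c at 25.74 to 41.5 TPM. Markers of the feeder fibroblasts summed to 21.2 to 42.4 TPM over 8 genes in the TetON groups and 40.8 to 88.4 in the wild-type groups, and of the 8, 1 rose and 2 fell in SOX2-OFF against CEpiLC, below the 48.5% of all tested genes called. Their part in the levels of T, Eomes and Mixl1 was not tested.

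Genes next to the 3 on the chromosome did not share their size of change. The nearest tested gene after T was Pde10a, a phosphodiesterase gene 82691 bases downstream, which rose by 1.93 in CEpiLC against EpiLC and differed by 0.26 in SOX2-ON against SOX2-OFF (edgeR adjusted p = 1.28e-05 and 0.352). Golga4, a Golgi tether gene 20064 bases beyond Eomes, rose by 0.43 in SOX2-OFF against CEpiLC and fell by 0.28 in SOX2-ON against SOX2-OFF (edgeR adjusted p = 0.0021 and 0.0379), where Eomes moved by 3.55 and -3.82. Lin9 and Acbd3, on either side of Mixl1, differed by -0.07 and -0.26 in SOX2-ON against SOX2-OFF (edgeR adjusted p = 0.630 and 0.0078). RefSeq also places the start of Eomes within the non-coding gene Gm33408 and that of T within a locus known only by a number, and neither was analysed here.

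Across the 12 libraries, the Pearson correlation of log2 CPM was 0.87 between T and Mixl1, 0.84 between Eomes and Mixl1 and 0.67 between T and Eomes, as a description over libraries that share 4 groups. Of 10872 genes with an average of at least 2 log2 CPM, those most like T were Cdx1 (0.995), Evx1 (0.995), Wnt5b (0.992), Sp5 (0.991) and Fst (0.991). Those most like Mixl1 were Lgals3 (0.989), Xpo6 (0.984), Ndufaf4 (0.983), Pdgfrl (0.982) and Cs (0.982). Those most like Eomes were Sacm1l (0.980), Itpripl2 (0.977), Cmtm6 (0.965), Suco (0.962) and Cpox (0.962). The 5 genes most like Eomes likewise had their highest mean in SOX2-OFF, but over a far narrower range of levels. Sacm1l, for instance, had mean levels of 36.2 TPM in EpiLC and 61.5 in SOX2-OFF. Cdx1, by contrast, had means of 0 in EpiLC and 61.0 TPM in CEpiLC, with 49.2 TPM in SOX2-OFF against 15.2 TPM in SOX2-ON, the order of T except for the CEpiLC and SOX2-OFF pair.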

How the data were processed

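The libraries were made from polyA RNA with the KAPA mRNA HyperPrep kit and read as single-end, strand-specific reads. Adapters were removed by the authors with cutadapt 1.16, and RSEM 1.3.0 with STAR 2.5.2a gave strand-aware gene counts against mm10 RefSeq genes. They deposited expected counts and TPM values per gene and library, and the authors' tools list also names DESeq2 1.16.1.

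Rounded to integers, the deposited expected counts were tested with edgeR 4.0.16 (TMM, filterByExpr, quasi-likelihood test, all 12 libraries in 1 fit of 4 groups, limma 3.58.1 and R 4.3.3), with Benjamini-Hochberg adjustment over 14196 genes and calls at an adjusted p of at most 0.05. SE values are the log2 fold change divided by the square root of the F statistic. The deposited TPM values were used for levels and for ratios between genes. DESeq2 1.42.0 was an alternative, as the authors' test. T, Eomes, Mixl1 and the gene lists were chosen with earlier results of these data known, so their counts are descriptions. Genes named are these 3, Sox2, Sox3, members of 10 lists, the 2 nearest annotated genes on each side, and the 5 most correlated genes for each of the 3. Within-library ratios use log2 CPM with a prior count of 0.5, and their SE comes from the group SDs. A limma-trend fit of these ratios was planned and run, but every ratio shares the noise of its reference gene, the prior degrees of freedom were infinite, and its p-values are not given. Sequences and positions are from RefSeq, GRCm38.p6, the same build as mm10. Promoter windows were found for 2 of the 3 genes.

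Same-numbered EpiLC and CEpiLC libraries deviated weakly together (correlations over all tested genes 0.103 to 0.132, each over 0.1). The labels give only a replicate number, so a pairing is a hint from the data, and the main fit was unpaired. No 2 replicates of a group agreed within counting noise (chi-square per degree of freedom 7.35 to 41.8). On simulated counts for CEpiLC against EpiLC with 200 of 13974 genes changed 4-fold, edgeR recovered 99.5%. The simulation used the typical spread of genes at each level, and Eomes and Mixl1 varied more than most genes within CEpiLC. Its rate therefore does not carry over to them. Alternatives changed the scaling, the filter, the tool, the block by replicate number, the libraries in the fit and the chromosome medians. 1 listed gene is not reported here.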

Additional observations from a re-analysis of the deposited data

How the results depend on the processing

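For T, Eomes and Mixl1 in the 6 comparisons, 252 of 270 values under an alternative kept both direction and call. Eomes in CEpiLC against EpiLC lost its call in limma-voom (1.14) and ranged from 1.13 to 2.05 with 1 library left out. T in SOX2-OFF against CEpiLC ranged from -0.01 to 0.41 with 1 library left out, turning sign without CEpiLC replicate 1 (-0.0068) and passing the threshold without CEpiLC replicate 3. Eomes in SOX2-ON against CEpiLC turned sign in limma-voom (0.17) and without CEpiLC replicate 3 (0.16), and ranged from -0.75 to 0.16 with 1 library left out. In SOX2-ON against EpiLC, limma-voom lost the calls of Eomes (1.31) and Mixl1 (2.41), which ranged from 1.12 to 1.38 and from 1.99 to 2.72 with 1 library left out. The cause was not tested. The 90 counts of all genes called stayed within 1.5 times, and the 180 ratio differences moved by less than 1 SD. Exact permutation tests of the ratios cannot pass the threshold and were not rerun. Of 1800 list counts under these alternatives, a check chosen after seeing the data, 95 moved by over 1.5 times. With chromosome medians removed, Tcf7 turned sign in SOX2-OFF against CEpiLC (0.15) and SOX2-ON against EpiLC (0.33), and Znrf3 in SOX2-OFF against CEpiLC (0.27). Both lie outside the 3 genes.

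With the replicate number as a block, no call of the 3 genes changed. In CEpiLC against EpiLC the blocked change of Mixl1 was 6.03 and the edgeR adjusted p of Eomes 0.00819, and the genes called in that comparison rose from 5994 to 6491. In the other comparisons the block gave 4625 to 9143 genes called. Every sample correlated best with its own number in CEpiLC against EpiLC, SOX2-OFF against CEpiLC, SOX2-ON against CEpiLC and SOX2-ON against SOX2-OFF. In all 6 comparisons the samples share only a number, so this is a hint from the data and not from the design.

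Low counts limit the values in EpiLC, where T had 6 to 14 counts and Mixl1 7 to 19 per library. A TetON culture without CHIR99021 was not analysed here, so dependence on CHIR99021 at fixed SOX2 was not measured.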
